A study of Homo sapiens with 15 samples.

Results

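RNA of THP-1 cells, a human cell line of an acute monocytic leukaemia, was sequenced after incubation with bacterial extracellular vesicles (BEVs), and 7 genes were followed: the chemokine receptors CCR1, CCR2, CX3CR1, CXCR3 and CXCR4 and the atypical receptors ACKR3 and CCRL2. They were chosen by name as receptors that monocytes carry or are known for, and all 7 of the 7 symbols were found among the 60286 genes of the count table. The study asked whether BEVs isolated by precipitation with ε-polylysine, a positively charged polymer (PL), act on cells as BEVs isolated by ultracentrifugation (UC) do. There were 5 groups of 3 libraries. NC cells received PBS, EUC and EPL cells received BEVs of E. coli at 1 µg/mL, prepared by UC and by PL in that order, and SUC and SPL cells received BEVs of S. aureus at 10 µg/mL, prepared likewise. All cells were wild type THP-1 cells of 1 line, the incubation lasted 6 h by the study's methods, and the labels give Day 0. Species and dose changed together, so they cannot be told apart, and a sample of 1 line stands for no donor.

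Chemokine receptors are receptors with membrane-spanning helices that couple to G proteins and steer leukocytes up gradients of chemokines. On blood monocytes, CCR2 binds CCL2 and drives exit from the bone marrow, CX3CR1 binds the membrane-held chemokine CX3CL1, and CXCR4 binds CXCL12, which holds cells in the marrow. Atypical receptors bind their ligands without the usual G protein signal: ACKR3 takes up CXCL12 and CXCL11, and CCRL2 holds chemerin at the cell surface.

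The libraries held from 14399421 to 16637345 counts in all, and 17198 genes had enough counts to be tested, among them 6 of the 7 receptors. CCRL2 was below that filter. Expression is given as CPM, counts scaled to a common normalized library size. A gene was called when its adjusted p was at most 0.01 and its change at least 2-fold. Of 12 monocyte marker genes, 10 had a mean of at least 1 CPM in every group. CD68 had only 3 to 5 counts per group, and FCN1 had no count in the EPL, SUC and SPL groups. CD14, the LPS co-receptor, had 3.77 ± 0.685 CPM in NC (SD, n = 3). Of 10 T and NK cell markers 1 had a mean of at least 1 CPM in each group, and CD3D, CD3G and LCK had no count in any library. Of 6 B cell markers 3 reached 1 CPM in every group, and of these PAX5, a B cell transcription factor, rose in all 4 BEV groups from 5.44 ± 0.394 CPM in NC, while BANK1, a B cell adaptor, fell in all 4 from 12.3 ± 0.827 CPM. Of 10 stromal, endothelial and epithelial markers 2 reached 1 CPM in NC, 3 in SUC and 4 in the other groups, with most of their sum from PECAM1, an adhesion molecule that monocytes also carry, at 305 ± 2.88 CPM in NC. The libraries EUC3, EPL1 and SUC3 stood apart from the others of their groups. The chi-square per gene was 15.2 to 45.9 in the 6 pairs that hold one of them and 2.16 to 7.05 in the other 9 pairs. Results on CCR1 and CX3CR1 are therefore given with and without these libraries.

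CCR1, CCR2 and CCRL2 lay in a cluster of receptor genes on the short arm of chromosome 3 in hg38, at chr3:46201711-46208313 on the minus strand, chr3:46353864-46360940 on the plus strand and chr3:46407166-46412997 on the plus strand. CX3CR1 lay apart from them at chr3:39263495-39281735 on the minus strand, CXCR4 at chr2:136114349-136119177 on the minus strand, ACKR3 at chr2:236567787-236582354 on the plus strand, and CXCR3 at chrX:71615916-71618511 on the minus strand. All are protein-coding genes of GENCODE release 44. CCR3 spans CCR1 on the opposite strand, with 0 shared exon bases, and the strand setting of the counting is not given in the sources used here. CCR3 had 111 counts over all 15 libraries, against 3512 for CCR1 in the 3 NC libraries alone.

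The start regions of the 4 most abundant receptors are shown, since 1 of them rose, 2 fell in at least 1 group and 1 was not called. Each runs 5′ to 3′ on the strand of its gene, from 250 bases before to 50 bases after a RefSeq start (GRCh38.p14). The windows lie at chr3:46208264-46208563 (minus) for CCR1, chr3:46353861-46354160 (plus) for CCR2, chr3:39281686-39281985 (minus) for CX3CR1 and chr2:136118100-136118399 (minus) for CXCR4. The last 2 genes have 3 listed starts each, and the first is shown. Capitals mark matches, on either strand, to motifs of NF-kappa B (GGANTTTCC), AP-1 (TGANTCA), the core of the interferon-stimulated response element (GAAANNGAA), HIF (ACGTG), C/EBP (TTGCNNAA) and PU.1 (GAGGAAG), none of which overlap here.
CCR1: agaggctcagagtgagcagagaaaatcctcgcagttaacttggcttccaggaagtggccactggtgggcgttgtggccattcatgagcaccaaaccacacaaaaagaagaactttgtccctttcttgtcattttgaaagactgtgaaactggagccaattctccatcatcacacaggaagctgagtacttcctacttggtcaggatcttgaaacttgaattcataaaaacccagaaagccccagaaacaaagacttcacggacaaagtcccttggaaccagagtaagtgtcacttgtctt
CCR2: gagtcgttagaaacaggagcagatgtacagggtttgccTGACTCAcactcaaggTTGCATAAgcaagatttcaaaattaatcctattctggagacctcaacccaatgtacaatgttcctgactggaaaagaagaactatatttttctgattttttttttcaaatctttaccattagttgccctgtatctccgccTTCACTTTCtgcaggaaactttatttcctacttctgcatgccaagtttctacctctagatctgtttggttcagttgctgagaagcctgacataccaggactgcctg
CX3CR1: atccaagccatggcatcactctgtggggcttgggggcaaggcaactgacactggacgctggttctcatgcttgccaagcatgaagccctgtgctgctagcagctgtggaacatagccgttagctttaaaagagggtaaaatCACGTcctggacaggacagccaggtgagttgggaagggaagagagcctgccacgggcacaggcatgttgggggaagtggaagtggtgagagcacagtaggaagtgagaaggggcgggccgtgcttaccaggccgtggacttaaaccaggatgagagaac
CXCR4: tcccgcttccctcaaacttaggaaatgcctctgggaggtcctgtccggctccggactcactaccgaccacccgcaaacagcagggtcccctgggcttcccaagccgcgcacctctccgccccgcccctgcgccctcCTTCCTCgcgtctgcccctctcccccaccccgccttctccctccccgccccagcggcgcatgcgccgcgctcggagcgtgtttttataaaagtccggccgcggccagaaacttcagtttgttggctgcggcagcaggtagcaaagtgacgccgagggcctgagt
The CCR1 window held no match. The CCR2 window held the AP-1 letters from base -212, the C/EBP letters from base -196 and the interferon core from base -56, counted from the start. The CX3CR1 window held the HIF core from base -109, and the CXCR4 window held the PU.1 letters from base -114. These letters are found in 7.71% (AP-1), 10.5% (C/EBP), 8.11% (interferon core), 21.4% (HIF) and 13.6% (PU.1) of 35116 promoter windows of this length. The NF-kappa B letters, in 1.64% of them, were in none of the 11 windows of 6 receptors. No window for ACKR3 was used here. A match is a string of letters and no measure of binding.

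CCR1, a receptor for CCL3 and CCL5, rose in all 4 BEV groups. The NC libraries held 71.0, 70.5 and 71.8 CPM. The EUC libraries held 204, 203 and 170 CPM, and the EPL libraries 179, 217 and 200 CPM. The SUC libraries held 174, 147 and 138 CPM, and the SPL libraries 192, 189 and 191 CPM. Every BEV library was above every NC library, and SUC had the lowest mean of the BEV groups, 153 ± 18.8 CPM (SD, n = 3), with 1 of its libraries above EUC3. Against NC, CCR1 was 2.71-fold higher in EUC (95% CI 2.34 to 3.13, adjusted p = 3.1e-09), 2.79-fold in EPL (2.41 to 3.23, adjusted p = 2.2e-09), 2.15-fold in SUC (1.86 to 2.49, adjusted p = 1.4e-07) and 2.68-fold in SPL (2.32 to 3.11, adjusted p = 4.8e-09). Without EUC3, EPL1 and SUC3 the log2 fold changes were 1.52, 1.55, 1.18 and 1.43, against 1.44, 1.48, 1.11 and 1.42 with them.

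CCR2, the receptor for CCL2 and CCL7, was not called in any group. The NC libraries held 298, 319 and 304 CPM, and the 12 BEV libraries ran from 285 to 322 CPM. Every BEV group overlapped NC. The log2 fold changes lay between -0.04 and 0.04, and their 95% confidence intervals between -0.18 and 0.18, so all 4 intervals lay between 0.883- and 1.13-fold of NC. CCR2 was counted with 13763 to 15180 reads per group, the most of the 7 genes.

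**Figure D1:**
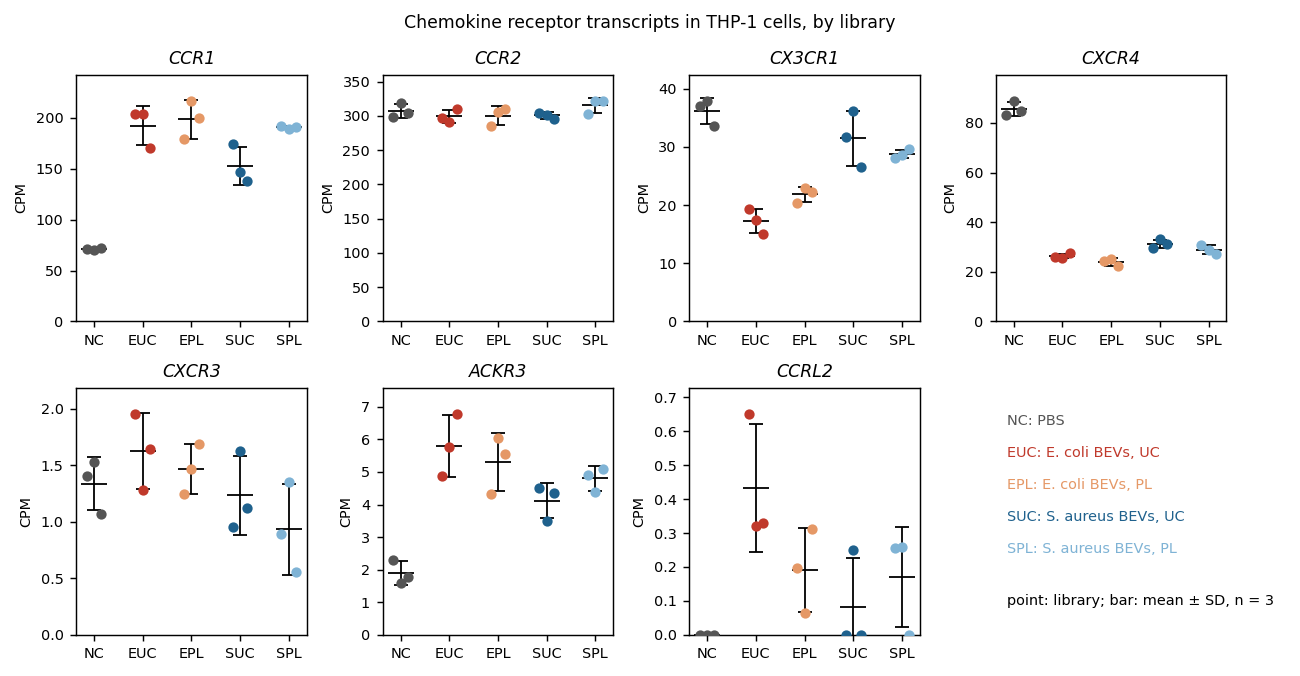
CPM of each receptor in every library (points) by group, with the mean and SD of 3 libraries as bars, each panel from 0 on its own scale. CCR1 and ACKR3 are above NC and CXCR4 below NC in all 12 BEV libraries, CCR2 overlaps NC in every group, and CX3CR1 is lowest in EUC with 17.2 CPM.

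CX3CR1, the fractalkine receptor, was lower after E. coli BEVs. It was at 37.0, 37.9 and 33.6 CPM in the NC libraries. It was at 19.3, 17.4 and 15.1 CPM in EUC and at 20.3, 22.9 and 22.2 CPM in EPL. It was at 31.6, 36.1 and 26.6 CPM in SUC and at 28.2, 28.6 and 29.6 CPM in SPL. The EUC, EPL and SPL libraries lay below all NC libraries, while SUC overlapped NC. Against NC, CX3CR1 fell 2.1-fold in EUC, with a log2 fold change of -1.07 (95% CI -1.31 to -0.82, adjusted p = 8.8e-07). In EPL the log2 fold change was -0.73 (-0.97 to -0.49, adjusted p = 5.9e-05), past the p threshold, as 29.2% of tested genes were, and under 2-fold. It was -0.20 in SUC (-0.44 to 0.04, adjusted p = 0.196) and -0.33 in SPL (-0.57 to -0.09, adjusted p = 0.0316). The call in EUC rests on the 2-fold limit and on the library EUC3, since the log2 fold change was -0.98 without EUC3 (adjusted p = 2.4e-06). Without EUC3, EPL1 and SUC3 the log2 fold changes were -0.98 in EUC, -0.68 in EPL, -0.33 in SPL and -0.09 in SUC, with an adjusted p of 0.0014 in SPL.

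CXCR4, the signalling receptor for CXCL12, fell in all 4 BEV groups. The NC libraries held 83.3, 88.8 and 84.7 CPM. The EUC libraries held 26.0, 25.7 and 27.5 CPM, and the EPL libraries 24.4, 25.4 and 22.3 CPM. The SUC libraries held 29.8, 33.1 and 31.0 CPM, and the SPL libraries 31.0, 28.6 and 27.2 CPM. No BEV library reached the lowest NC library, and the SD within groups was 0.952 to 2.86 CPM. CXCR4 was 3.24-fold lower in EUC (log2 fold change -1.70, 95% CI -1.87 to -1.52, adjusted p = 3.1e-11) and 3.56-fold lower in EPL (-1.83, -2.01 to -1.66, adjusted p = 1.3e-11). It was 2.74-fold lower in SUC (-1.45, -1.63 to -1.28, adjusted p = 3.4e-10) and 2.96-fold lower in SPL (-1.56, -1.74 to -1.39, adjusted p = 1.1e-10).

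CXCR3, which binds the interferon-induced chemokines CXCL9, CXCL10 and CXCL11 and is known mainly from T cells, was scarce. It had 8 to 30 counts per library, with 1.34 ± 0.236 CPM in NC, 1.63 ± 0.335 in EUC, 1.47 ± 0.220 in EPL, 0.933 ± 0.402 in SPL and 1.23 ± 0.348 in SUC (SD, n = 3 each). All pairs of groups overlapped. No change against NC was called, with adjusted p from 0.281 to 0.841, and the 95% confidence intervals reached from -1.23 to 0.95 on the log2 scale. The interval held a 2-fold change in SPL (-1.23 to 0.21) and in no other group.

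ACKR3, the atypical receptor that shares CXCL12 with CXCR4, rose in all 4 BEV groups from a low level. It was at 2.3, 1.59 and 1.79 CPM in the NC libraries, from 27 to 36 counts. It was at 4.88, 5.77 and 6.77 CPM in EUC and at 4.33, 6.05 and 5.56 CPM in EPL. It was at 4.51, 3.50 and 4.36 CPM in SUC and at 4.92, 4.38 and 5.10 CPM in SPL. Every BEV library exceeded every NC library, and BEV groups overlapped one another except EUC and SUC. The rise was 3.07-fold in EUC (95% CI 2.28 to 4.13, adjusted p = 5.0e-06), 2.81-fold in EPL (2.08 to 3.79, adjusted p = 1.4e-05), 2.18-fold in SUC (1.60 to 2.95, adjusted p = 0.00046) and 2.54-fold in SPL (1.88 to 3.43, adjusted p = 6.0e-05).

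CCRL2 was counted only in BEV libraries. It had 0, 0 and 0 counts in NC, 10, 5 and 5 counts in EUC, 3, 1 and 5 in EPL, 0, 4 and 0 in SUC and 4, 4 and 0 in SPL. All 6 E. coli libraries and 3 of the 6 S. aureus libraries had a count. A count of 0 over the 3 NC libraries allows up to 3 counts. Set against these 3 counts, the CCRL2 counts as they stand were 7.13-fold higher in EUC, 3.16-fold in EPL, 1.44-fold in SUC and 2.88-fold in SPL. These values cover the counting error of NC only, and not that of the BEV counts or the spread between libraries. The mean was 0.22 CPM in the 12 BEV libraries and 0 in NC (two-sided exact permutation test, p = 0.0879). It was 0.312 CPM over the E. coli and 0.127 CPM over the S. aureus libraries (two-sided exact permutation test, p = 0.0563). Both p were 0.0879 when adjusted over these 2 comparisons. The test of the BEV libraries against NC could not give a lower p with these counts. NC was at 0 in every library, and some BEV libraries were at 0 too. That it missed 0.05 was thus fixed in advance and says nothing for or against a rise. The p between the species did not pass 0.05 before or after adjustment. Where no filter on low counts was set, edgeR called CCRL2 up in EUC (adjusted p = 0.00085) and in no other comparison.

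Of the 6 tested receptors, 2 rose in each BEV group (CCR1 and ACKR3), 2 fell in EUC (CXCR4 and CX3CR1) and 1 fell in each other group (CXCR4). Over all tested genes, 9.43% rose and 5.75% fell in EUC, 9.38% and 5.15% in EPL, 6.82% and 3.06% in SUC, and 7.76% and 3.7% in SPL. The median log2 fold change of the 6 receptors was 0.12 in EUC, 0.05 in EPL, -0.15 in SPL and -0.07 in SUC, against 0.00 for all tested genes in EUC. With 6 genes, these counts are a description. In bulk RNA, fewer cells with a transcript and less of it per cell cannot be told apart.

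**Figure D2:**
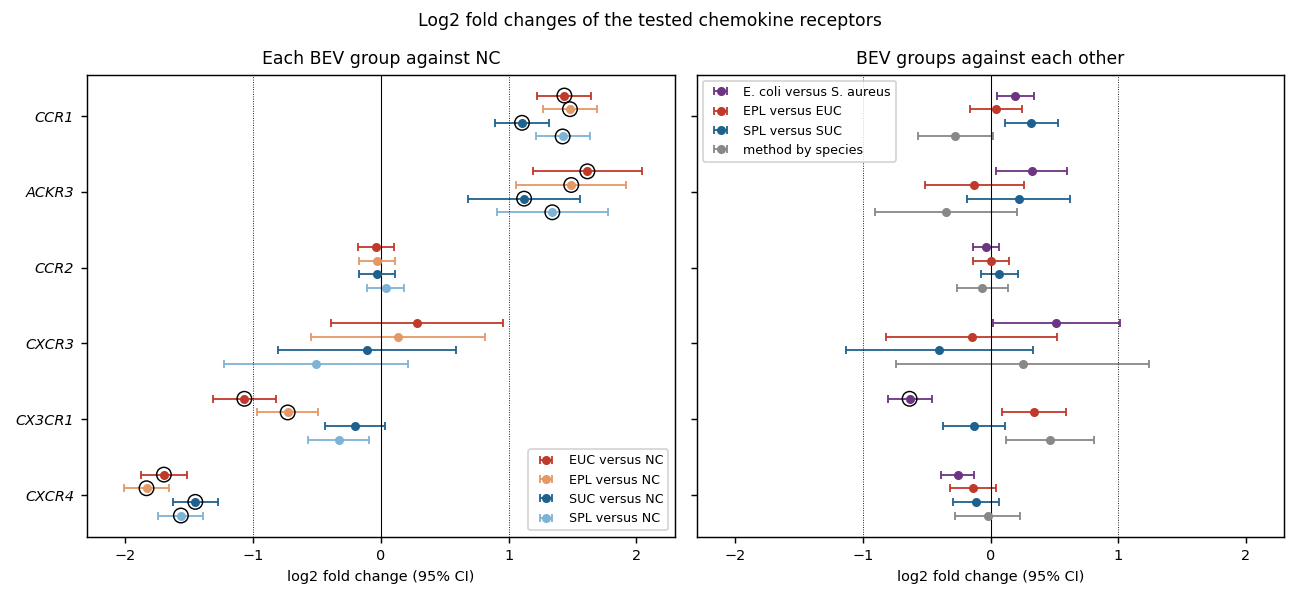
Log2 fold changes of the 6 tested receptors with 95% confidence intervals, each BEV group against NC (left) and the BEV groups against each other (right), with circles around values of an adjusted p of at most 0.01 and dotted lines at 2-fold. On the right only CX3CR1 between the species, at -0.63, is circled.

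Levels of different genes were compared as RPKM, CPM per kilobase of merged exons. In NC the order was CCR2 (79.3 ± 2.72 RPKM), CXCR4 (29.5 ± 0.985), CCR1 (26.9 ± 0.263), CX3CR1 (9.89 ± 0.614), ACKR3 (0.915 ± 0.178) and CXCR3 (0.718 ± 0.127), with CCRL2 at 0 (SD, n = 3 each). Only ACKR3 and CXCR3 had overlapping ranges among these neighbours. After BEVs, CCR1 took the second place from CXCR4 in all 4 groups. CCR1 was at 72.7 ± 7.39 RPKM beside 77.3 ± 2.51 for CCR2 in EUC and at 75.0 ± 7.10 beside 77.6 ± 3.57 in EPL, and the ranges of these 2 genes overlapped there. In SUC (57.8 ± 7.09 beside 77.6 ± 1.17) and SPL (72.0 ± 0.653 beside 81.4 ± 2.85) they did not overlap. CXCR3 ranked below ACKR3 in every group, and their ranges were apart in all 4 BEV groups.

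CXCR4 and ACKR3, which share CXCL12, changed in opposite directions. The ratio of CXCR4 to ACKR3, taken per length within each library, was 25.8, 39.9 and 33.8 in NC. It was 3.80, 3.18 and 2.89 in EUC, 4.02, 2.99 and 2.86 in EPL, 4.71, 6.74 and 5.08 in SUC and 4.49, 4.66 and 3.81 in SPL. The ratio was thus lower in every BEV library than in any NC library, with ACKR3 remaining below CXCR4 throughout. The ratio of CCR2 to CCR1 went from 2.95 ± 0.120 in NC to 1.07 ± 0.151 in EUC, 1.04 ± 0.0645 in EPL, 1.13 ± 0.0482 in SPL and 1.35 ± 0.141 in SUC. CCR2 made up 53.9% of the summed RPKM of the 7 receptors in NC and 45.6% to 49.4% in the BEV groups, CCR1 18.3% and 36.6% to 44%, and CXCR4 20.0% and 4.88% to 6.86%. The ratios and shares follow from the levels above and were not tested.

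**Figure D3:**
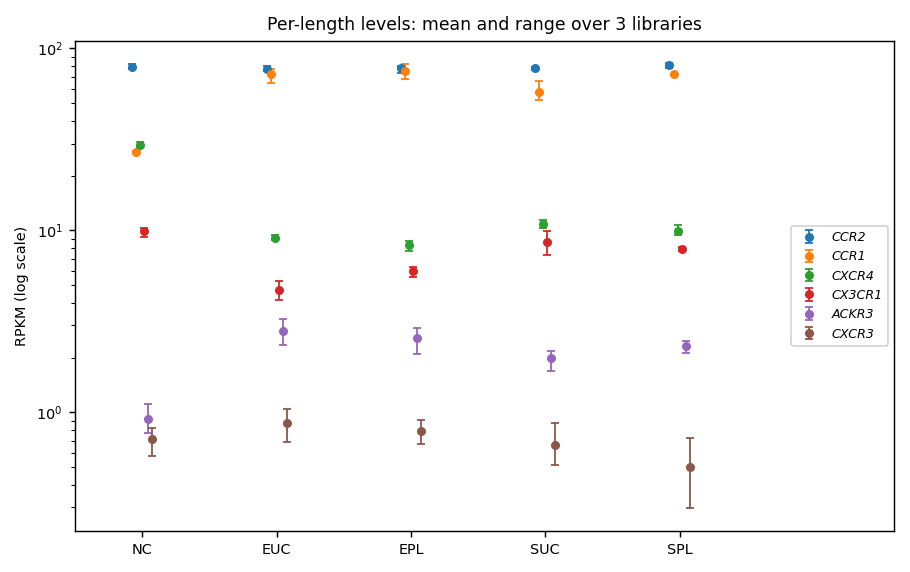
RPKM on a log scale of 6 receptors by group, with points at the mean and bars over the range of 3 libraries; CCRL2 is left out because it was at 0 in NC. CCR1 moves up to CCR2, reaching 75.0 RPKM in EPL, while CXCR4 drops from 29.5 RPKM to between 8.28 and 10.8 RPKM.

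Between the species, at doses that differ, CX3CR1 was the only receptor past the p threshold. Its log2 difference of the E. coli groups from the S. aureus groups was -0.63 (95% CI -0.81 to -0.46, adjusted p = 8.7e-05), which is 1.55-fold lower after E. coli BEVs. All 6 E. coli libraries, at 15.1 to 22.9 CPM, lay below all 6 S. aureus libraries, at 26.6 to 36.1 CPM. Without EUC3, EPL1 and SUC3 the difference was -0.62 (adjusted p = 2.9e-07). Over all tested genes, 3.87% passed the same p threshold in this comparison and 0.686% were called with the 2-fold limit, which no receptor reached. By edgeR, 5 of the 6 receptors had an unadjusted p under 0.05, against 17% of all tested genes, and DESeq2 also called 0 receptors.

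CXCR4 was lower after E. coli than after S. aureus BEVs by 0.26 on the log2 scale, with the 95% CI of the difference from -0.38 to -0.13, and its adjusted p of 0.0125 missed the threshold. It passed with DESeq2 (adjusted p = 0.0026), with upper-quartile factors (0.0079), with a stricter filter (0.0085), without EUC3 (0.0077) and without EUC3, EPL1 and SUC3 (0.0031). These are 5 of 23 alternatives, over which it ran from 0.0026 to 0.0598. The difference for CCR1 was 0.19 (0.05 to 0.34, adjusted p = 0.122), and without EUC3, EPL1 and SUC3 it was 0.23 with an adjusted p of 0.0014, the only 1 of 23 alternatives in which it passed (0.0014 to 0.329). For ACKR3 it was 0.32 (0.04 to 0.60, adjusted p = 0.201), for CXCR3 0.52 (0.02 to 1.01, adjusted p = 0.268), and for CCR2 -0.04 (-0.14 to 0.06, adjusted p = 0.797). The smallest interval was that of CCR2.

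The CX3CR1 difference between species was then taken within each isolation method. EUC was below SUC by a log2 difference of -0.87 (95% CI -1.11 to -0.62, adjusted p = 0.00021), a threshold that 2.49% of tested genes passed. EPL was below SPL by -0.40 (-0.64 to -0.16, adjusted p = 0.142), where 0.384% of tested genes passed. The difference between these 2 values, the method by species term, was 0.47 (0.12 to 0.81), with an unadjusted p of 0.011 and an adjusted p of 1.00, and was not called. Without EUC3, EPL1 and SUC3 these CX3CR1 differences were -0.89 for EUC from SUC (-1.11 to -0.68, adjusted p = 9.7e-07) and -0.35 for EPL from SPL (-0.55 to -0.16, adjusted p = 0.0187), and the term was 0.54 (adjusted p = 0.0833). No receptor and 0% of tested genes were called for this term by edgeR, 1 receptor (CX3CR1) and 3.83% of tested genes had an unadjusted p under 0.05, and DESeq2 called 0 receptors. In the order of CX3CR1 levels, NC, SUC, SPL, EPL, EUC, no neighbours differed at an adjusted p of 0.01, while EUC differed from SUC and from SPL (adjusted p = 0.0026). EPL differed from SUC without EUC3, EPL1 and SUC3 (adjusted p = 0.00026) and missed the threshold with them (0.0120).

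The isolation methods were compared within each species. Of the 6 receptors, 0 were called between EPL and EUC by edgeR, where 0% of all tested genes were, and CX3CR1 alone had an unadjusted p under 0.05, as did 3.51% of tested genes. Between SPL and SUC 0 receptors were called, where 0.00581% of tested genes were, and CCR1 alone had an unadjusted p under 0.05, as did 5.81% of tested genes. DESeq2 called 0 receptors in both comparisons. CX3CR1 had a log2 difference of EPL from EUC of 0.34 (95% CI 0.09 to 0.59, adjusted p = 0.947), with the 3 EPL libraries above the 3 EUC libraries, and 0.30 without EUC3, EPL1 and SUC3 (adjusted p = 0.622). CCR1 had a log2 difference of SPL from SUC of 0.32 (0.11 to 0.52, adjusted p = 0.727), with no overlap of the libraries, and 0.25 without EUC3, EPL1 and SUC3 (adjusted p = 0.141). The 95% intervals for the method differences of CCR2 reached from -0.14 to 0.15 in E. coli and from -0.07 to 0.21 in S. aureus on the log2 scale. Those of CXCR4 reached from -0.32 to 0.04 and from -0.29 to 0.07, and those of ACKR3 from -0.51 to 0.26 and from -0.18 to 0.62. Differences of 2-fold between methods lay outside the intervals of CCR1, CCR2, CX3CR1, CXCR4 and ACKR3, but not outside that of CXCR3 in S. aureus (-1.13 to 0.33).

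CCR1 and CX3CR1 varied together with the libraries that stood apart. The leading axis of variation within groups held 34.8% of the within-group variance of log2 CPM, and EUC3, EPL1 and SUC3 had scores of -43.9, -32.2 and -31.7 on it, with the others from -5.99 to 36.0. EUC3, EPL1 and SUC3 were the lowest libraries of their groups for both CCR1 and CX3CR1. Over the deviations of the 15 libraries from their group means, Pearson's r with the axis was 0.86 for CCR1 and 0.81 for CX3CR1, and 0.09 for CCR2, 0.18 for CXCR3, -0.28 for CXCR4 and -0.06 for ACKR3. EUC3 and SUC3 also had the highest shares of counts on ribosomal protein genes, 7.23% and 7.27%. The part of this axis in the results was not tested beyond leaving the libraries out.

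**Figure D4:**
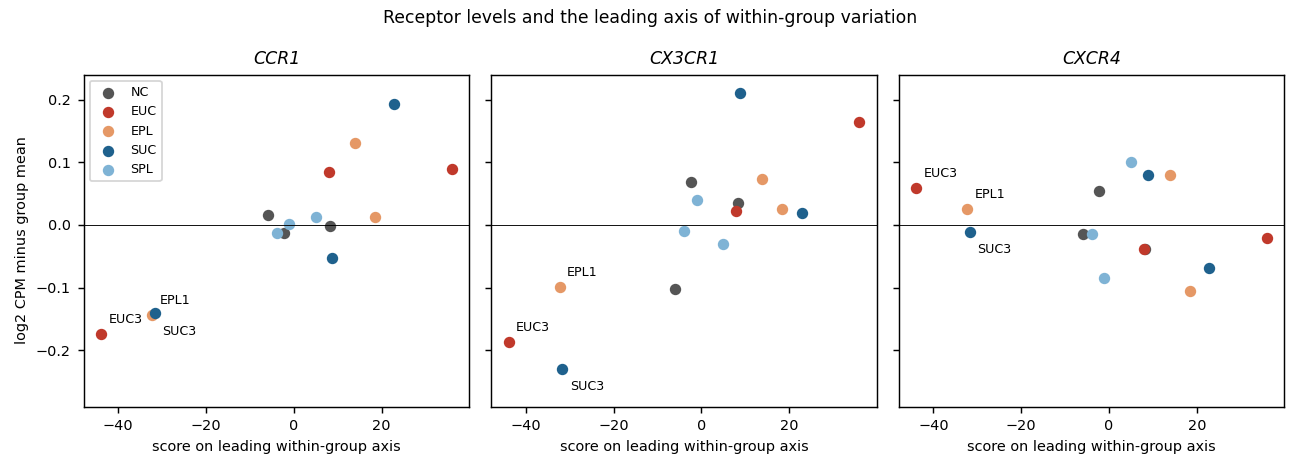
Deviation of log2 CPM from the group mean for CCR1, CX3CR1 and CXCR4 against each library's score on the leading axis of within-group variation, coloured by group. EUC3, EPL1 and SUC3, at scores of -43.9 to -31.7, lie lowest for CCR1, and CXCR4 shows no such slope (r = -0.28).

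Genes whose log2 CPM followed a receptor most closely over the 15 libraries were named for each, among 12285 protein-coding genes. For CCR1 these were ETV6 (r = 0.996), ZCCHC2 (0.995) and GAS7 (0.994), and for CXCR4 they were ZNF438 (0.997), OAF (0.990) and NTSR1 (0.989). For ACKR3 they were BAALC (0.978), ARHGAP24 (0.976) and CLEC17A (0.975). For CX3CR1 they were ATP8B4 (0.941), PRICKLE1 (0.939) and CMYA5 (0.934), with 0.919, 0.942 and 0.901 over the 12 BEV libraries. The likeness was lower for CCR2 (PRIM2, 0.772) and CXCR3 (FGF13, 0.793). These r are a description, since the points share the contrast with NC.

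Among 17 other chemokine receptors, 6 were tested. In EUC 2 rose and 2 fell, in EPL 2 rose and 1 fell, and in SUC and SPL 1 rose and 2 fell. Of all tested genes, 9.43%, 9.38%, 6.82% and 7.76% rose in EUC, EPL, SUC and SPL, and 5.75%, 5.15%, 3.06% and 3.7% fell. CXCR2, the receptor for CXCL8, fell from 18.9 ± 0.602 CPM in NC to 5.52 ± 0.607 in EUC, 6.37 ± 1.48 in EPL, 6.71 ± 1.18 in SPL and 7.79 ± 1.14 in SUC, with log2 fold changes from -1.78 to -1.28. ACKR2, a scavenger of inflammatory CC chemokines, fell in EUC (-1.14), SUC (-1.28) and SPL (-1.04) and had -0.80 in EPL (adjusted p = 0.0258). CCR7, which guides cells to lymph nodes, had no count in NC and 67, 64, 22 and 19 counts in EUC, EPL, SUC and SPL. Taken as they stand, these counts are 23.9-, 22.4-, 7.91- and 6.85-fold higher against 3 counts over the NC libraries, and CCR7 was called up in every BEV group. It passed the filter on low counts through the BEV libraries, so only a rise could be called for it. CCR3 and CXCR6 were tested and not called, and XCR1 and CCR9 had at most 7 and 1 counts per group.

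Of 20 ligands of the receptors, 13 were tested, and 12 rose in EUC and 11 in each other group, with 0 down. The shares of all tested genes that rose were 9.43%, 9.38%, 6.82% and 7.76% in EUC, EPL, SUC and SPL. The shares that fell were 5.75%, 5.15%, 3.06% and 3.7%. The median log2 fold change of the tested ligands was 7.26, 6.75, 5.79 and 6.16 in EUC, EPL, SUC and SPL. It was 5.79, 5.32, 4.47 and 4.88 when the 2 genes without a count in NC (CCL8 and CXCL9) were set against 3 counts over the NC libraries. Several tested ligands, among them CCL7, CCL8, CXCL9, CXCL10 and CXCL12, had at most 7 counts over the NC libraries together. They passed the filter on low counts through the BEV libraries, so only a rise could be called for them. The numbers that rose or fell and the medians are therefore a description and no test of the ligands as a set. CCL2, the main ligand of CCR2, rose from 1.08 ± 0.272 CPM to 184 ± 41.7, 160 ± 12.5, 127 ± 15.3 and 161 ± 7.29 CPM in the same order. CCL7, a further ligand of CCR2, rose from 1 count in NC to 247, 182, 71 and 92 counts. CCL8, with no count in NC, was 671-, 591-, 219- and 367-fold higher against 3 counts over the NC libraries, with its BEV counts as they stand. CXCL12, the ligand of CXCR4 and ACKR3, rose from 0.142 ± 0.125 CPM to 49.8 ± 4.06, 51.0 ± 3.92, 19.0 ± 5.15 and 27.3 ± 2.24 CPM. It was called higher after E. coli than after S. aureus BEVs (log2 difference 1.15, adjusted p = 8.1e-06), as were CCL7 (1.36) and CCL8 (1.15). CXCL10, a ligand of CXCR3, rose from 3 counts in NC to 117 ± 28.1, 96.5 ± 9.72, 80.3 ± 7.48 and 81.4 ± 3.0 CPM. CX3CL1, the ligand of CX3CR1, had 0 to 1 count per group, and so had RARRES2, which encodes chemerin.

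Of 20 receptors for other chemoattractants, 17 were tested, of which 10, 10, 7 and 8 rose and 3, 2, 2 and 3 fell in EUC, EPL, SUC and SPL. The shares of all tested genes are those given above for the other chemokine receptors. CMKLR1, the signalling receptor for chemerin, rose from 3 counts in NC (0.0588 ± 0.102 CPM) to 21.5 ± 5.98, 22.4 ± 1.75, 10.8 ± 3.46 and 13.9 ± 1.5 CPM. With so few counts in NC, only a rise could be called for CMKLR1. PTAFR, the receptor for platelet-activating factor, rose from 3.6 ± 0.29 to 77.4 ± 4.04, 79.4 ± 2.73, 48.1 ± 4.50 and 55.9 ± 1.26 CPM. C3AR1, the receptor for complement C3a, rose with log2 fold changes of 3.75 to 3.91, and GPR183, a receptor for oxysterols, with 2.23 to 3.22.

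Of 18 tested regulators that end receptor signals, 4, 2, 3 and 4 rose and 3, 1, 1 and 1 fell. RGS1 and RGS2, which speed up the shut-off of G proteins, rose in all 4 groups, RGS2 from 0.815 ± 0.189 to between 3.80 and 8.06 CPM. RGS1 had 1 count over the NC libraries, so only a rise could be called for it. RGS18 fell from 14.9 ± 1.27 to between 4.55 and 5.54 CPM, and RGS16 rose in EUC, SUC and SPL. Of 25 tested G proteins and migration genes, 2, 1, 1 and 1 rose and 2, 1, 1 and 1 fell. Over all tested genes, 9.43%, 9.38%, 6.82% and 7.76% rose and 5.75%, 5.15%, 3.06% and 3.7% fell. The counts of the 25 G proteins and migration genes are near or below these shares. PIK3R5, a regulatory subunit of the PI3-kinase that G protein βγ subunits activate, rose in all 4 groups from 20.5 ± 0.850 CPM to between 61.9 and 119 CPM. PREX1, a Rac activator, fell in all 4, from 252 ± 15.4 CPM to between 90.2 and 123 CPM. VAV1 rose and PLCB2 fell in EUC alone by the 2-fold limit, which is no test of a difference between groups.

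Of 12 transcription factors of monocytes, all tested, 4, 3, 2 and 3 rose and 3, 3, 3 and 2 fell, beside the shares of all tested genes given above. IRF8, a factor of monocyte and dendritic cell development, fell from 1050 ± 17.7 CPM to between 270 and 396 CPM, and GFI1, a repressor in myeloid cells, fell from 394 ± 7.05 CPM to between 102 and 134 CPM. CEBPE, a factor of granulocyte maturation, fell in EUC, EPL and SUC.

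The sum of dendritic cell and macrophage markers was higher after E. coli than after S. aureus BEVs, and this sum was not tested. Of 7 such markers that were tested singly, 2 were called higher after E. coli BEVs. Of all tested genes, 0.686% were called in either direction between the species. The summed CPM of 12 dendritic cell and macrophage markers was 3.52 to 4.47 in the NC libraries, 58.0 to 60.0 in EUC, 53.0 to 59.8 in EPL, 16.6 to 23.5 in SUC and 26.1 to 30.8 in SPL. Of the 12, 1 had a mean of at least 1 CPM in NC, 4 in EUC, EPL and SPL and 3 in SUC, and FCER1A had no count in EUC and SUC. LAMP3, a marker of mature dendritic cells, gave most of the sum with 46.5 ± 1.98 CPM in EUC and 12.4 ± 2.94 in SUC. The summed CPM of 12 monocyte markers was 1522 to 1552 in NC and 1864 to 2449 in the BEV libraries. Of these markers, SPI1 alone went from 471 ± 15.9 CPM in NC to 1198, 1105, 960 and 1002 CPM in EUC, EPL, SUC and SPL. The median log2 fold change of the 10 tested monocyte markers was -0.27, -0.08, -0.08 and -0.15 in the same order. The higher sum is thus no general rise of monocyte markers. The part of the dendritic cell, macrophage and monocyte markers in the CX3CR1 result was not tested.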

How the data were processed

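RNA of THP-1 cells was measured in 15 libraries of 5 groups (NC, EUC, EPL, SUC, SPL; n = 3 each), assigned by the deposited labels. The authors aligned reads to hg38 with HISAT2 at default settings and deposited raw read counts per Ensembl gene without normalization. The submitters' processing notes list FastQC 0.11.5, HISAT2 2.1.0, StringTie 1.3.3b, DESeq 1.28.0 and featureCounts, with no role or order. For strand setting and annotation release, nothing is given in the sources used here.

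The counts were analysed with edgeR 4.0.16 in R 4.3.3. Genes passing filterByExpr (17198) were normalized by TMM and fitted with the quasi-likelihood test in 1 model of all 15 libraries, without a replicate block, and p-values were adjusted by Benjamini-Hochberg over all tested genes. Calls needed an adjusted p not above 0.01 together with a change of 2-fold or more. Log2 CPM used a prior count of 2. Totals of 14399421 to 16637345 counts per library set the counting error. CCRL2, below the filter, was tested by two-sided exact permutation of mean CPM. RPKM used merged exon lengths of GENCODE release 44. Promoter windows came from RefSeq (GRCh38.p14), with 6 of 7 receptors matched by symbol. Alternatives were DESeq2 1.42.0, RLE and upper-quartile factors, other filters, other sets of libraries, a replicate block and each library left out. Leaving out EUC3, EPL1 and SUC3 together was chosen after seeing the data. The fitting script was tested on simulated data.

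The receptors, gene lists and tests were chosen with earlier results of these data known. Named genes are the 7 receptors, up to 4 called genes per list with the largest mean change and a mean of at least 1 CPM, the ligands and neighbours fixed with the lists, and the 3 genes most like each tested receptor by Pearson's r. Some genes of these lists are counted but not reported here by name. CCR7, CD14, CD68, FCN1, FCER1A, PAX5, BANK1 and PECAM1 were singled out once values had been seen. The labels do not say that replicates were separate cultures, so p-values measure the spread between these libraries, which may be technical. The replicate numbers did not pair libraries, with a mean correlation of deviations of 0.0095 for equal numbers and -0.0036 for other numbers. The authors' own comparisons were not used, and 0 columns of values were left unused.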

Additional observations from a re-analysis of the deposited data

Results flagged for a closer look

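The difference of CX3CR1 between E. coli and S. aureus BEVs passed the test of the difference itself (log2 difference -0.63, 95% CI -0.81 to -0.46, adjusted p = 8.7e-05 by edgeR). The change against NC was therefore larger after 1 µg/mL of E. coli BEVs than after 10 µg/mL of S. aureus BEVs, and dose and species cannot be told apart. Over leaving out each library in turn the difference ran from -0.69 to -0.59.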

How the results depend on the processing

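Against NC, the changes of CCR1, CXCR4, CX3CR1 and ACKR3 kept their direction and side of the threshold in 366 of 368 checks over 23 alternatives. The exceptions were CX3CR1 in EUC, at -0.98 on the log2 scale without EUC3 and -0.98 without EUC3, EPL1 and SUC3, so that between 3 and 4 receptors were called there. Without a filter on low counts CCRL2 was also called up in EUC, which gave 5 receptors. Without the 2-fold limit CX3CR1 was called between the species, which gave 1 receptor, and also in EPL against NC, which gave 4 in place of 3. Values near 0 that no setting called changed sign. With upper-quartile factors this held for CCR2 in SPL against NC (-0.032). Over leaving out each library it held for CCR2 in SUC (-0.051 to 0.0031) and EPL (-0.060 to 0.0055) and for CXCR3 in SUC (-0.35 to 0.050) and EPL (-0.0034 to 0.25). In EPL against EUC it held for CXCR3 (-0.30 to 0.0080), CCR2 (-0.026 to 0.042), CCR1 (-0.036 to 0.11) and ACKR3 (-0.23 to 0.00084), and for the method by species term of CXCR4 (-0.074 to 0.018) and CXCR3 (-0.014 to 0.62). Without EUC3, EPL1 and SUC3 it held for CCR2 in EPL against NC (0.0096), ACKR3 in EPL against EUC (0.13) and the method by species term of CCR2 (0.019) and CXCR4 (0.0076). The cause was not tested. The exact p for CCRL2 between the species ran from 0.0217 to 0.113 over leaving out each library, and it passed 0.05 without EPL2, SUC2, SPL1 or SPL2. With the replicate block, 4 receptors were called in EUC and 3 in each other BEV group against NC, 0 were called in the other comparisons, and the block changed no call. CXCR3 and CCRL2 are limited by depth, with at most 30 and 10 counts per library.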
